A study of Mus musculus with 36 samples.

Results

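Refeeding after a fast was followed in the liver of mice that carry 1 truncated copy of Pik3r1 (Pik3r1 WT/Y657*), by comparing 6 mice refed chow for 6 h with 6 mice of the same genotype fasted for 16 h. These 12 mice were chosen by the genotype and feeding state in their sample titles and are 12 of the 36 mice sequenced, the others being fed WT/Y657* mice and wild-type littermates that were fed, fasted or refed. All were 16-week-old males on a C57Bl/6J background kept on chow, and the refed mice had gone through the same 16 h fast. The knock-in allele is present in every tissue from conception, so liver, fat, muscle and brain all carry it, and the response of the liver cannot be separated from that of the rest of the animal. Both groups carry the mutation, so the comparison is between feeding states within 1 genotype. The mice belong to 2 series of mouse numbers, a lower and a higher one, with 3 refed and 3 fasted WT/Y657* mice in each, and the series was kept as a block in every test. Single mice are named as in their titles, with ONF for fasted, RF6 for refed and MT for WT/Y657*.

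Pik3r1 encodes p85α, p55α and p50α, the regulatory subunits through which phosphoinositide 3-kinase docks on the insulin receptor substrates, and the truncated protein lacks the end of its C-terminal SH2 domain. In normal liver a meal raises insulin and glucose and lowers glucagon. Insulin signals through phosphoinositide 3-kinase and AKT to restrain FOXO1, which drives glucose output, and to activate SREBP-1c, which drives fatty acid synthesis, while glucose activates ChREBP. Fasting is the opposite setting, in which PPARα drives the burning of fatty acids and CREB, FOXO1 and the glucocorticoid receptor drive gluconeogenesis. Refeeding is also a load on protein synthesis and folding, and food is a timing cue for the liver clock.

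Gene counts summed to between 9716801 and 14630431 per fasted library and between 12780228 and 15055577 per refed library, and mitochondrial genes took 5.49 to 12.8% and 5.69 to 10.1% of them. Hepatocyte markers were present in every library, at summed levels of 71333 to 90300 CPM, a gene's count scaled to library size, in fasted and 58931 to 78709 CPM in refed mice. Markers of sinusoidal endothelium summed to 448 to 560 CPM fasted and 376 to 413 CPM refed, and 3 of 6 were lower; those of stellate cells summed to 420 to 586 CPM and 348 to 424 CPM, and 4 of 6 were lower and 1 higher. Markers of Kupffer cells summed to 224 to 381 CPM and 200 to 583 CPM with none called. Neutrophil markers summed to 3.27 to 11.3 CPM fasted and 2.46 to 30.5 CPM refed with none called and Ly6g at 0 in all 12 libraries, and those of pancreatic acinar cells to at most 0.98 CPM. Of 6 adipocyte markers Pnpla2, which hepatocytes also express, was lower (log2 fold change -0.79, adjusted p = 5.43e-08) and Lep was at 0 in all 12 libraries. Of 6 erythroid markers Hbb-b1 was lower (log2 fold change -0.69, adjusted p = 0.0383). Of 6 hepatocyte markers 1 was lower, and none of the cholangiocyte or lymphocyte markers was called. In whole liver fewer cells of a type and less RNA per cell cannot be told apart, and the part of these markers in the results below was not tested. The i5 library index followed the feeding state, D503 or D504 in fasted and D505 or D506 in refed mice, and the hour of harvest is not given in the sources used here, so index, clock time and feeding cannot be told apart. Among refed mice, RF6_MT_898 stood farthest from its group, and among fasted mice ONF_MT_827 did. Counts without both are given beside some of the lists whose counts moved, not all.

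Levels are given as CPM after TMM scaling, and 3 values in a row are the lowest, the median and the highest of the 6 mice of a group. Changes are log2 fold changes of refed over fasted mice with their standard error (SE), an amount after "rose by" is that log2 fold change, and adjusted p comes from the quasi-likelihood test of edgeR, adjusted by Benjamini-Hochberg over all 13945 genes tested. SE was derived from that test, as the absolute log2 fold change divided by the square root of its F statistic. A gene is called at an adjusted p below 0.05. Of the genes tested, 4391 (31.5%) were called, 2412 (17.3%) higher and 1979 (14.2%) lower in refed mice. With libraries scaled by library size alone the same test called 3376 higher and 1231 lower, so the balance of directions depends on the scaling. Most changes were small, with a median absolute log2 fold change of 0.49 among called genes, and 602 (4.32%) were called and changed at least 2-fold, 285 higher and 317 lower. In 970 genes (6.96%) every refed mouse lay above every fasted mouse, and in 692 (4.96%) every refed mouse lay below. Of the 4391 called genes, 4385 had the same direction in both series of mice. The calls were made with both series together, so this agreement is no independent check. A direct test of whether the response differed between the series called 0 genes, with 879 at an unadjusted p under 0.05. A gene called in a single series below is therefore not shown to respond differently between series. The missed threshold does not show equal responses either. These shares are the background against which the gene lists below are to be read.

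Motifs were searched on both strands in promoters of tested list members, whether called or not. Promoters were available for part of the lists from RefSeq (mouse build GRCm38.p6, from 250 bases before the transcription start to 50 after it). They are shown here because sterol synthesis and protein folding, both among the lists with the larger shares of members called below, are known for 2 such elements. Lists and genes tested were counted by gene, a gene holding a motif if any of its promoters did, with promoters for 10446 genes tested. The sterol regulatory element, searched as TCACNCCAC, lay in 1.24% of 32851 promoters and 1.44% of genes tested. Of 19 cholesterol genes with a promoter it lay in 1, Hmgcs1. The endoplasmic reticulum stress element, searched as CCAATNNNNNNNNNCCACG, lay in 39 promoters (0.119%) and in 0.163% of genes tested. In the unfolded protein response list it lay in 9 of 41 genes with a promoter. These were Calr, Canx, Creld2, Derl3, Dnajc3, Hsp90b1, Hspa5, Pdia6 and Syvn1. Windows of Canx, Dnajc3 and Syvn1, which rose less than the other holders, are not shown. Each window is given 5′ to 3′ along its gene, and capitals mark the match.
Hmgcs1, chr13:119690190-119690246, plus strand, match 128 bases before the start: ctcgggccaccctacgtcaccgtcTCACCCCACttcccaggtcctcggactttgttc
Hspa5, chr2:34772001-34772067, plus strand, match 46 bases before the start: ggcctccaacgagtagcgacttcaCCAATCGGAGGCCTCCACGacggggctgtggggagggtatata
Hsp90b1, chr10:86705614-86705680, minus strand, match 193 bases before the start: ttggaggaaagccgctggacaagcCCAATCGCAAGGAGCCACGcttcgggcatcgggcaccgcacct
Calr, chr8:84847051-84847117, minus strand, match 143 bases before the start: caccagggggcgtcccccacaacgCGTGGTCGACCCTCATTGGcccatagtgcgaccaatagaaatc
Pdia6, chr12:17266467-17266533, plus strand, match 79 bases before the start: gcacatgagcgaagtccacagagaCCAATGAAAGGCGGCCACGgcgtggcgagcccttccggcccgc
Creld2, chr15:88819496-88819562, plus strand, match 107 bases before the start: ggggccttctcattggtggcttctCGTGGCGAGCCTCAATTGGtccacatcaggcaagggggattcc
Derl3, chr10:75893218-75893284, plus strand, match 137 bases before the start: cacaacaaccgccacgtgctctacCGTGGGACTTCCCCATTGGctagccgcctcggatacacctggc
The matches in Calr, Creld2 and Derl3 read on the opposite strand. A match is a run of letters and was not tested for binding.

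Elements known for other lists were searched in the same way. Clock genes are known for the E-box, searched as CACGTG, and the D-box, searched as TTATGTAA. The E-box lay in 7.15% of all promoters, in 11.7% of genes tested and in 5 of 18 clock genes with a promoter. These were Bhlhe41, Ciart, Cry1, Per1 and Tef. Its share was higher in some other lists, such as 11 of 28 autophagy and lysosome genes, so it was not particular to clock genes. In the NRF2 list it lay in 0 of 17 genes. The D-box lay in 0.938% of all promoters, in 0.699% of genes tested and among clock genes in Per3 alone. The heat shock element, searched as GAANNTTCNNGAA, lay in 0.603% of all promoters and in 0.574% of genes tested. It lay in 4 of 17 heat shock genes, Chordc1, Hspd1, Hspe1 and Hsph1, of which Hspd1 and Hspe1 share a bidirectional promoter. The C/EBP-ATF element, searched as TGATGNAA, lay in 3.97% of all promoters and in 2.83% of genes tested. It lay in 5 of 12 aminoacyl-tRNA synthetase genes (Aars, Gars, Iars, Tars and Yars). The interferon response element, searched as TTTCNNTTTC, lay in 3.44% of all promoters, in 3.88% of genes tested and in 13 of 24 interferon-stimulated genes. The cAMP response element, searched as TGACGTCA, lay in 1.79% of all promoters, in 3.40% of genes tested and in 0 of 16 gluconeogenic genes. One window of each kind found is shown for a gene whose change is given with its list, and Gm129 is the name the count table uses for Ciart. Holders included genes not called, such as Per1, Cry1, Tars and Oas1a, and Rsad2 was called lower. Capitals mark 1 match per window. The Hspd1 window also holds an overlapping match on the opposite strand, and the Ifit1 window a second match in lower case. The match in Aars reads on the opposite strand.
Gm129, chr3:95882315-95882368, minus strand, match 110 bases before the start: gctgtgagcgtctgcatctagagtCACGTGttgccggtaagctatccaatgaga
Per3, chr4:151044839-151044894, minus strand, match 197 bases before the start: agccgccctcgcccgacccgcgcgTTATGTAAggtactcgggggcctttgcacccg
Hspd1, chr1:55088035-55088095, minus strand, match 126 bases before the start: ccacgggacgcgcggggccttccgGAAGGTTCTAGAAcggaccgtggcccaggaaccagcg
Aars, chr8:111033706-111033761, plus strand, match 104 bases before the start: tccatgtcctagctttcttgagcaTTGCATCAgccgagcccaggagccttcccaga
Ifit1, chr19:34640761-34640818, plus strand, match 94 bases before the start: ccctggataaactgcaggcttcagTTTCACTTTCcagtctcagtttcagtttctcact

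Most genes of cholesterol synthesis rose. SREBP-2 drives these genes when the sterol content of the endoplasmic reticulum is low, and their products run from acetyl-CoA to cholesterol. Of 27 genes of cholesterol synthesis and uptake, 23 rose and 1 fell, with a median log2 fold change of 2.05 against -0.0063 over all genes tested, and in 21 every refed mouse lay above every fasted one. Mvd, mevalonate diphosphate decarboxylase, stood at 0.428, 1.94 and 4.11 CPM in fasted and at 12.3, 26.6 and 79.7 CPM in refed mice. It rose 19.3-fold (log2 fold change 4.27, SE 0.42, adjusted p = 4.58e-09), and the groups did not overlap. Lack of overlap was part of the rule that named the 12 genes rising and 12 falling most, so for those genes, Mvd among them, it was fixed beforehand. Others of these genes described below include Sqle, Fdps, Idi1, Sc4mol, Aacs, Thrsp, Hsd3b5 and Cyp26a1, which rose. Those that fell include Elovl3, Insig2, G6pc, Pdk4, Plin4, Mt1, Mt2 and Mfsd2a. Sqle, squalene epoxidase and a rate-controlling step of the later pathway, stood at 2.22, 6.22 and 17.2 CPM in fasted and at 42.7, 70.3 and 229.5 CPM in refed mice (log2 fold change 3.89, SE 0.44, adjusted p = 5.46e-08). The highest fasted value of Sqle, 17.2 CPM in mouse ONF_MT_826, was still below the lowest refed value. Fdps, farnesyl diphosphate synthase, went from 7.78, 13.9 and 19 CPM to 42.5, 75 and 297 CPM (log2 fold change 3.06, SE 0.37). Idi1, isopentenyl-diphosphate isomerase, went from 12.3, 27.1 and 44.2 CPM to 53.3, 164 and 695 CPM (log2 fold change 3.20, SE 0.45).

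An early step of the pathway changed in the same direction. Hmgcs1, HMG-CoA synthase, whose promoter window with a sterol element is shown above, stood at 92.4, 137 and 154 CPM in fasted and 160.4, 391 and 1792 CPM in refed mice (log2 fold change 2.14, SE 0.38, adjusted p = 5.49e-05). All 6 refed mice lay above all 6 fasted mice in Hmgcs1. Mvk, mevalonate kinase, and Nsdhl, a sterol dehydrogenase, rose by log2 fold changes of 2.96 (SE 0.32) and 2.25 (SE 0.41). Sc4mol, a sterol methyl oxidase now called Msmo1, rose by 3.68 (SE 0.44). Aacs, which makes acetoacetyl-CoA from ketone bodies and is not in the list, rose by 3.90 (SE 0.48).

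Genes of sterol sensing were called as well. Srebf2, the transcription factor SREBP-2, rose by 0.95 (SE 0.14, adjusted p = 2.88e-06), and Insig1, which holds the SREBPs in the endoplasmic reticulum, by 2.44 (SE 0.30). The single member that fell was Mylip, a ubiquitin ligase and target of the sterol receptor LXR, from 18, 24.6 and 26.4 CPM to 10.3, 12.6 and 13.3 CPM (log2 fold change -0.92, SE 0.11, adjusted p = 5.78e-08). Scap, the escort of the SREBPs, was not called (log2 fold change -0.091, SE 0.075), and neither were Ebp and Tm7sf2, which act late in the pathway.

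The size of the sterol response differed between refed mice. As the median over the list of log2 ratios to the fasted mean, the refed mice ran from 0.99 in mouse RF6_MT_898 through a median of 1.62 to 2.95 in mouse RF6_MT_814, and the fasted mice from -0.34 in ONF_MT_806 to 0.23 in ONF_MT_826. Mouse RF6_MT_898, the lowest of the refed mice, was above the highest fasted mouse. The count of 23 was 24 in the lower-numbered series alone, 18 in the higher-numbered series alone, 22 without mice RF6_MT_814 and RF6_MT_817 and 23 without mice RF6_MT_898 and ONF_MT_827.

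**Figure D1:**
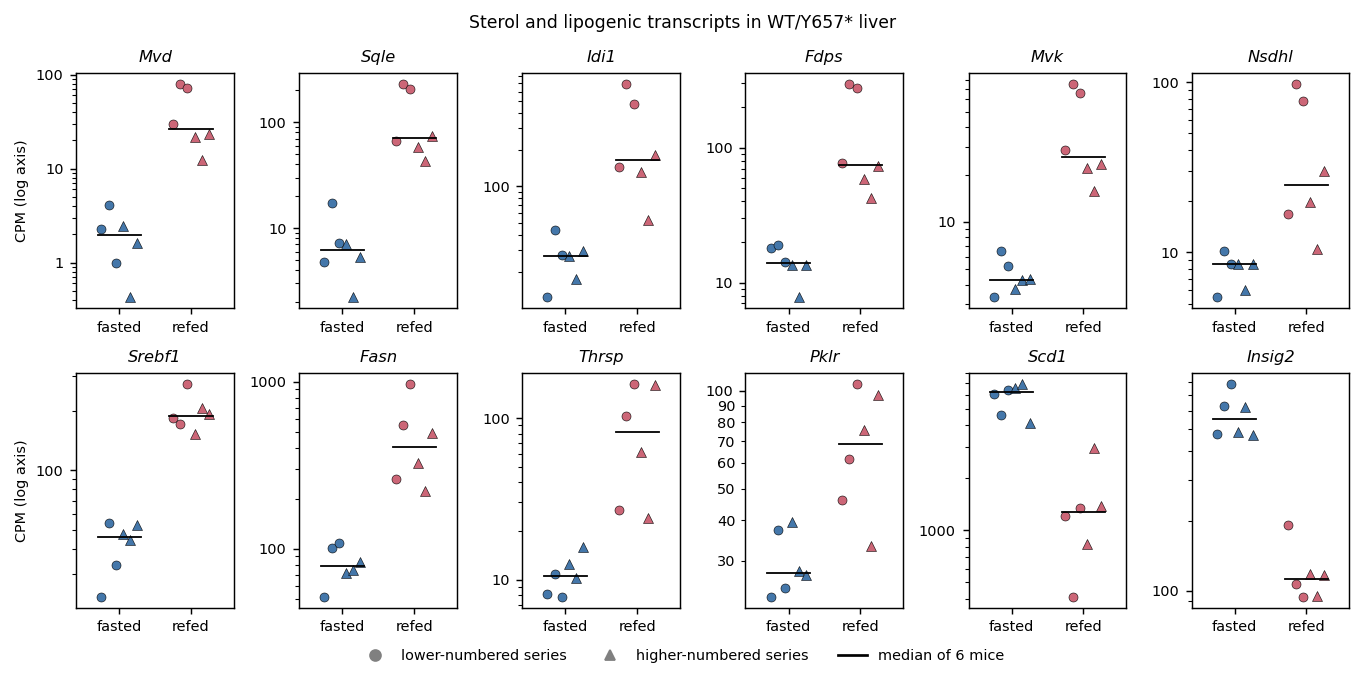
Level of 12 lipid and glucose genes in each of the 6 fasted and 6 refed WT/Y657* mice, on a log axis of CPM, with circles for the lower-numbered and triangles for the higher-numbered series and a line at the median of 6 mice. Mvd, Sqle, Idi1, Fdps, Mvk and Nsdhl separate completely upward, Scd1 and Insig2 separate completely downward with medians of 554 and 112 CPM for Insig2, and Pklr overlaps. For Mvd, Sqle, Idi1, Fdps and Insig2 the separation was fixed by the rule that named them.

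Fatty acid synthesis gave a split answer. Of 28 tested genes of de novo lipogenesis, of 29 listed, 13 rose and 5 fell, with a median log2 fold change of 0.17, and in 9 and 2 of them the groups did not overlap. Without mice RF6_MT_898 and ONF_MT_827 the 5 became 3. Srebf1, whose liver product is mainly SREBP-1c, stood at 22.8, 45.9 and 54 CPM in fasted and 152, 188 and 273 CPM in refed mice and rose 4.67-fold (log2 fold change 2.22, SE 0.20, adjusted p = 3.64e-10). Fasn, fatty acid synthase, stood at 51.4, 78.8 and 108 CPM and 220.4, 409 and 975 CPM (log2 fold change 2.49, SE 0.36, adjusted p = 3.26e-06). Thrsp, a small lipogenic regulator that responds to carbohydrate, stood at 7.79, 10.5 and 16 CPM and 24.1, 82.4 and 163 CPM (log2 fold change 3.04, SE 0.53, adjusted p = 5.26e-05), and its paralogue Mid1ip1, which activates acetyl-CoA carboxylase, at 4.08, 7.44 and 8.63 CPM and 37.5, 47 and 99.4 CPM (log2 fold change 2.96, SE 0.24, adjusted p = 1.06e-10). In all of them every refed mouse lay above every fasted mouse, and mouse RF6_MT_817 was the highest of the refed mice. For Thrsp this separation was fixed by the rule that named it. Acly, ATP citrate lyase, rose by 1.36 (SE 0.23), Acaca, the cytosolic acetyl-CoA carboxylase, by 0.65 (SE 0.18, adjusted p = 0.00527) with overlapping groups, and Dgat2, which makes triglyceride, by 0.72 (SE 0.095).

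The 5 members that fell were Scd1, Insig2, Acacb, Elovl5 and Agpat2. Scd1, stearoyl-CoA desaturase, stood at 4134, 6231 and 6952 CPM in fasted and 412, 1275 and 2952 CPM in refed mice, and fell 4.31-fold (log2 fold change -2.11, SE 0.51, adjusted p = 0.00209). Mouse RF6_MT_898 was the highest and mouse RF6_MT_814 the lowest of the refed mice, and none reached the lowest fasted mouse, but in the higher-numbered series alone the fall was not called. Elovl3, a fatty acid elongase outside the list, fell from 92.6, 245 and 403 CPM to 17, 26.2 and 37.9 CPM (log2 fold change -3.23, SE 0.32, adjusted p = 5.28e-09). Insig2, whose liver transcript insulin is known to lower, stood at 471, 554 and 785 CPM and 93.9, 112 and 192 CPM (log2 fold change -2.26, SE 0.17, adjusted p = 5.88e-12), with mouse RF6_MT_810 the highest of the refed mice and far below the fasted range. Acacb, the mitochondrial acetyl-CoA carboxylase, was called lower (log2 fold change -0.65, SE 0.24, adjusted p = 0.0392), a call that was lost without fasted mouse ONF_MT_806 and under several other alternatives.

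Fed WT/Y657* mice give a scale for these levels, although they come from other mouse numbers and no test was made against them. The fed median was 1919 CPM for Fasn, against 409 refed, 892 for Thrsp against 82.4, 622 for Srebf1 against 188, and 12921 for Scd1 against 1275. All 4 fed medians of lipogenic genes were above the highest refed mouse. For sterol genes the fed and refed medians lay closer together, with fed medians of 22.4 CPM for Mvd against 26.6 refed, 60.5 for Sqle against 70.3, and 407 for Hmgcs1 against 391.

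Of 25 genes of glucose phosphorylation, glycolysis and glycogen, 10 rose and none fell, with a median log2 fold change of 0.21, and of 20 genes of gluconeogenesis and glucagon-CREB signalling 2 rose and 9 fell, with a median of -0.25. Pklr, liver pyruvate kinase and a ChREBP target, stood at 23.2, 27.6 and 39.6 CPM in fasted and 33.2, 68.8 and 105 CPM in refed mice (log2 fold change 1.23, SE 0.34, adjusted p = 0.00589), with overlap and with a fed median of 283 CPM. Mlxipl, which encodes ChREBP, was not called (log2 fold change 0.15, SE 0.18, adjusted p = 0.577).

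G6pc, the catalytic subunit of glucose-6-phosphatase, stood at 272, 428 and 612 CPM in fasted and 23.5, 78.7 and 192 CPM in refed mice and fell 5.19-fold (log2 fold change -2.38, SE 0.49, adjusted p = 0.000385). The groups did not overlap, which the rule that named G6pc fixed beforehand. Mouse RF6_MT_898 was the lowest and mouse RF6_MT_810 the next, and the fed median of 439.7 CPM lay within the fasted range. Pck1, phosphoenolpyruvate carboxykinase, stood at 4144, 5056 and 5629 CPM and 1036, 2499 and 3349 CPM (log2 fold change -1.14, SE 0.21, adjusted p = 6.62e-05), with mouse RF6_MT_817 the lowest. Got1, which moves carbon out of mitochondria for gluconeogenesis, fell (log2 fold change -2.14, SE 0.32), as did Ppargc1a, a coactivator that fasting induces (log2 fold change -1.17, SE 0.18), both with overlap. The calls of G6pc and Pck1 were lost in the higher-numbered series alone, where Pck1 had a log2 fold change of -0.74 (adjusted p = 0.0808) against -1.57 in the lower-numbered series.

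Of 22 genes of the insulin receptor pathway and FOXO1 response, 5 rose and 5 fell, with a median log2 fold change of 0.025. Igfbp1, a FOXO1 target secreted in fasting, stood at 36.1, 89.3 and 352 CPM in fasted and 1.67, 3.9 and 51.9 CPM in refed mice (log2 fold change -3.13, SE 0.72, adjusted p = 0.00114) with overlap. Irs2, the insulin receptor substrate that FOXO1 induces, stood at 8.18, 17 and 32 CPM and 4.15, 6.7 and 8.48 CPM (log2 fold change -1.50, SE 0.28, adjusted p = 0.000128). The highest refed mouse was just above the lowest fasted mouse, ONF_MT_923. Insr, the receptor, fell (log2 fold change -0.46, SE 0.09, adjusted p = 0.000116) with no overlap. Pik3r1, the mutated gene, read from both alleles together, stood at 74.5, 99.1 and 112 CPM and 128, 152 and 166 CPM and rose by 0.62 (SE 0.10, adjusted p = 8.39e-06) with no overlap. Gm6484, now called Angptl8, an insulin-induced hepatokine, rose from 6.88, 15.6 and 40.6 CPM to 66.8, 104 and 179 CPM (log2 fold change 2.65, SE 0.42, adjusted p = 1.51e-05).

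Part of the fasting programme of fat burning fell, and some well-known PPARα targets were not called. Of 40 genes of PPARα, fatty acid oxidation and ketogenesis, 15 fell and 2 rose, with a median log2 fold change of -0.28. Pdk4, the kinase that shuts pyruvate dehydrogenase in fasting, stood at 8.71, 17.6 and 45.8 CPM in fasted and 1.86, 2.5 and 3.6 CPM in refed mice and fell 7.56-fold (log2 fold change -2.92, SE 0.29, adjusted p = 2.32e-09). Angptl4, an inhibitor of lipoprotein lipase, stood at 199.7, 235 and 273 CPM and 19.7, 45.6 and 94.2 CPM (log2 fold change -2.25, SE 0.37, adjusted p = 2.15e-05). Plin4, a lipid droplet protein outside the list, stood at 60.6, 76.8 and 104 CPM and 9.57, 10.01 and 13.3 CPM (log2 fold change -2.94, SE 0.24, adjusted p = 1.2e-10), and Plin2, the main droplet coat protein of liver, at 758, 901.3 and 1239 CPM and 311, 364 and 410.4 CPM (log2 fold change -1.39, SE 0.12, adjusted p = 1.79e-11). In these genes no refed mouse reached the lowest fasted mouse, which for Pdk4 and Plin4 was fixed by the rule that named them. The refed mice lay close together for Plin4. Slc22a5, the carnitine transporter, fell (log2 fold change -1.61, SE 0.14), as did Cpt1a, the gate of fatty acid entry into mitochondria (log2 fold change -0.77, SE 0.11), both without overlap. Ppara itself was called lower (log2 fold change -0.26, SE 0.091, adjusted p = 0.0236) with overlap.

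Cyp4a14, a microsomal fatty acid hydroxylase, stood at 4107, 5465 and 5943 CPM in fasted and at 3300.2, 5053 and 5655 CPM in refed mice (log2 fold change -0.15, SE 0.42, adjusted p = 0.825). Ehhadh, a peroxisomal enzyme of fatty acid oxidation, stood at 2244, 2457 and 3239.8 CPM and 1879, 2388 and 4795 CPM (log2 fold change 0.12, SE 0.21, adjusted p = 0.694). Neither was called, and the groups overlapped, while fed medians were 93.1 CPM for Cyp4a14 and 268 CPM for Ehhadh. Cyp4a10, a close relative of Cyp4a14, was not called either, with medians of 1804 CPM fasted, 1803 refed and 42.5 fed. The Cyp4a genes are near-identical copies and their counts may share reads, so values of single members are uncertain. The count of 15 genes that fell was 13 and 8 in the lower- and higher-numbered series alone, 20 when gene length was corrected for and 11 without mice RF6_MT_898 and ONF_MT_827.

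**Figure D2:**
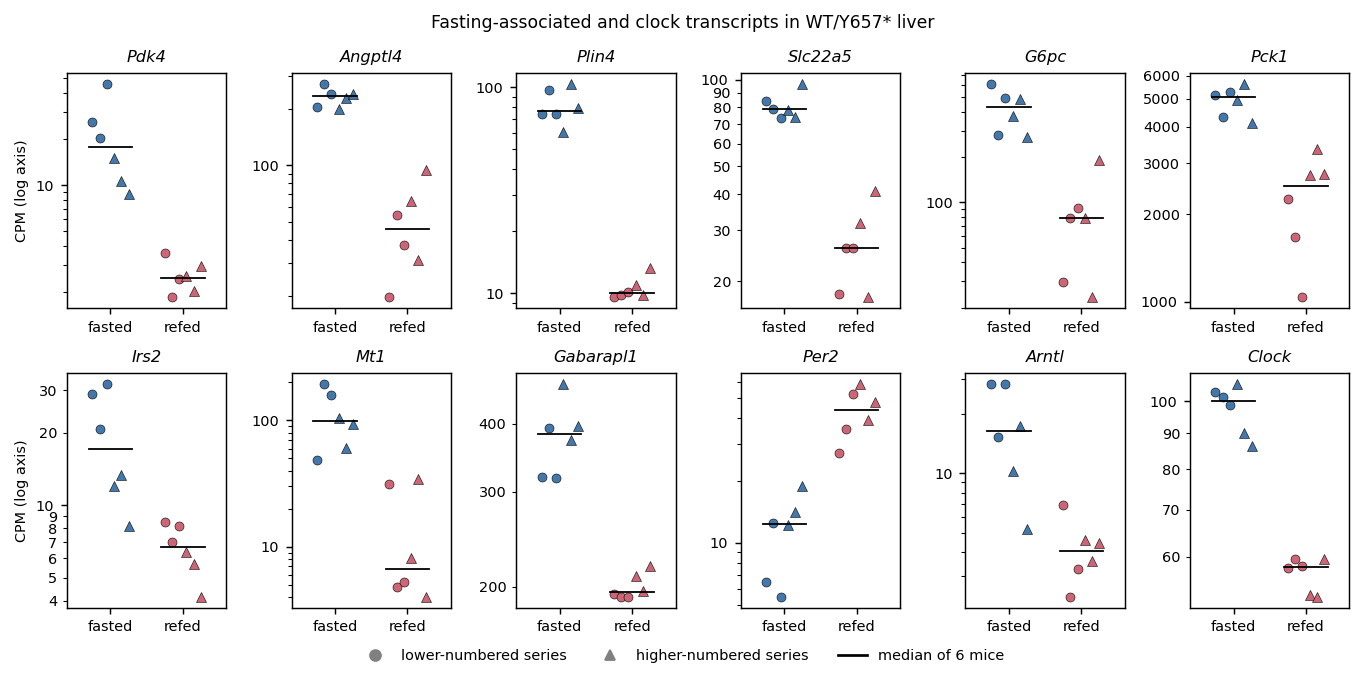
Level of 12 fasting, stress and clock genes in each of the 6 fasted and 6 refed WT/Y657* mice, on a log axis of CPM, with circles for the lower-numbered and triangles for the higher-numbered series and a line at the median. Pdk4, Angptl4, Plin4, Slc22a5, G6pc, Pck1, Mt1, Gabarapl1 and Clock separate completely downward, Per2 upward, and Irs2 and Arntl fall with overlap. For Pdk4, Plin4, G6pc and Mt1 the separation was fixed by the rule that named them.

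Genes that fold and export protein rose in large number. The endoplasmic reticulum responds to a rise of secretory load through the sensors IRE1 (Ern1), PERK (Eif2ak3) and ATF6, and XBP1 spliced by IRE1 induces chaperones. Of 50 genes of this unfolded protein response list found in the table, of 51 listed, 41 rose and 1 fell, with a median log2 fold change of 0.64, and in 29 every refed mouse lay above every fasted mouse. Calr, the lectin chaperone calreticulin, stood at 376, 433 and 839 CPM in fasted and 1109, 1310.2 and 1455 CPM in refed mice (log2 fold change 1.36, SE 0.12, adjusted p = 1.28e-10). Pdia6, a protein disulfide isomerase, stood at 84.9, 125 and 225 CPM and 316, 390.1 and 415 CPM (log2 fold change 1.44, SE 0.14, adjusted p = 5.47e-10). Hspa5, the chaperone BiP, stood at 487, 600.3 and 1488 CPM and 1336, 1643 and 2278 CPM (log2 fold change 1.22, SE 0.20, adjusted p = 1.81e-05). Fasted mouse ONF_MT_826, with 839 CPM of Calr, stood above the other fasted mice, and in Hspa5 the highest fasted mouse lay above the lowest refed mouse. Sdf2l1, Creld2 and Derl3 are targets of the same response, and Sdf2l1 went from 3.93, 8.44 and 24.3 CPM to 40.01, 67 and 74.3 CPM (log2 fold change 2.60, SE 0.30, adjusted p = 6.65e-08) while Creld2 rose by 1.85 (SE 0.29) and Derl3, which draws misfolded protein out for degradation, by 2.65 (SE 0.66). Hsp90b1, the chaperone GRP94, rose by 1.14 (SE 0.15).

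Xbp1, the factor downstream of IRE1, rose by 0.79 (SE 0.11, adjusted p = 9.03e-07) without overlap. Of the sensors, Ern1 rose by 0.49 (SE 0.17, adjusted p = 0.0249) and Eif2ak3 by 0.50 (SE 0.17, adjusted p = 0.0215). The call of Ern1 was lost without fasted mouse ONF_MT_827 or fasted mouse ONF_MT_922. Atf6 was not called, at 82, 93.1 and 115 CPM in fasted and 89.1, 95.4 and 116 CPM in refed mice (log2 fold change 0.06, SE 0.08). The member that fell was A930001N09Rik, now called Crebrf, a negative regulator of the response (log2 fold change -0.77, SE 0.11). As list medians, the refed mice ran from 0.41 in mouse RF6_MT_897 to 0.78 in mouse RF6_MT_810 and the fasted mice from -0.23 to 0.19. The 41 were 30 and 33 in the lower- and higher-numbered series alone and 37 without mice RF6_MT_898 and ONF_MT_827.

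Of 23 tested heat shock and folding genes, of 24 listed, 14 rose and 1 fell, with a median log2 fold change of 0.42, and all 15 were without overlap. Stip1, the bridge between HSP70 and HSP90, stood at 58.4, 64 and 79.2 CPM in fasted and 135, 138 and 160.0 CPM in refed mice (log2 fold change 1.08, SE 0.11, adjusted p = 3.96e-09). Hsp90aa1, inducible HSP90, and Hspb1, a small heat shock protein, rose by 1.15 (SE 0.18) and 1.37 (SE 0.20), and Hspd1 and Hspe1, the mitochondrial chaperonins behind 1 shared promoter, by 0.56 (SE 0.082) and 0.50 (SE 0.098). Cirbp, a cold-inducible RNA-binding protein, fell (log2 fold change -0.90, SE 0.16). Hsf1, the regulator of the heat shock response, was not called (log2 fold change 0.085, SE 0.12).

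Of 20 cytosolic aminoacyl-tRNA synthetase genes 17 rose and none fell (median 0.41, 12 without overlap), of 64 ribosome biogenesis genes 36 rose and 3 fell (median 0.31, 16 and 0 without overlap), of 35 translation initiation factor genes 16 rose and 2 fell (median 0.16), and of 38 proteasome subunit genes 24 rose and 2 fell (median 0.21). The 17 synthetase genes became 13 without mice RF6_MT_898 and ONF_MT_827. Aars, alanyl-tRNA synthetase, stood at 158, 192 and 199.8 CPM in fasted and 272, 303 and 355 CPM in refed mice (log2 fold change 0.72, SE 0.082, adjusted p = 1.32e-08). Mrto4, a ribosome assembly factor, rose by 0.79 (SE 0.10), Eif2s1, the α subunit of initiation factor eIF2, by 0.50 (SE 0.069), and Psmd14, the deubiquitinase of the proteasome lid, by 0.51 (SE 0.075), each with no overlap. Ubtf, the Pol I factor UBF, was called lower (log2 fold change -0.34, SE 0.077), as was Nfe2l1, the factor that induces proteasome genes (log2 fold change -0.43, SE 0.073).

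Genes of cytosolic ribosomal proteins were less often called. Of 71 such genes 5 rose and 2 fell, 9.86% against 31.5% of all genes tested, with a median log2 fold change of -0.0069, which turned to 0.087 with 12 higher and none lower when libraries were scaled by library size alone and became -0.047 with 2 higher and 9 lower when gene length was corrected for. Many of these genes have processed pseudogenes with near-identical sequence, and the counting could divide their reads.

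**Figure D3:**
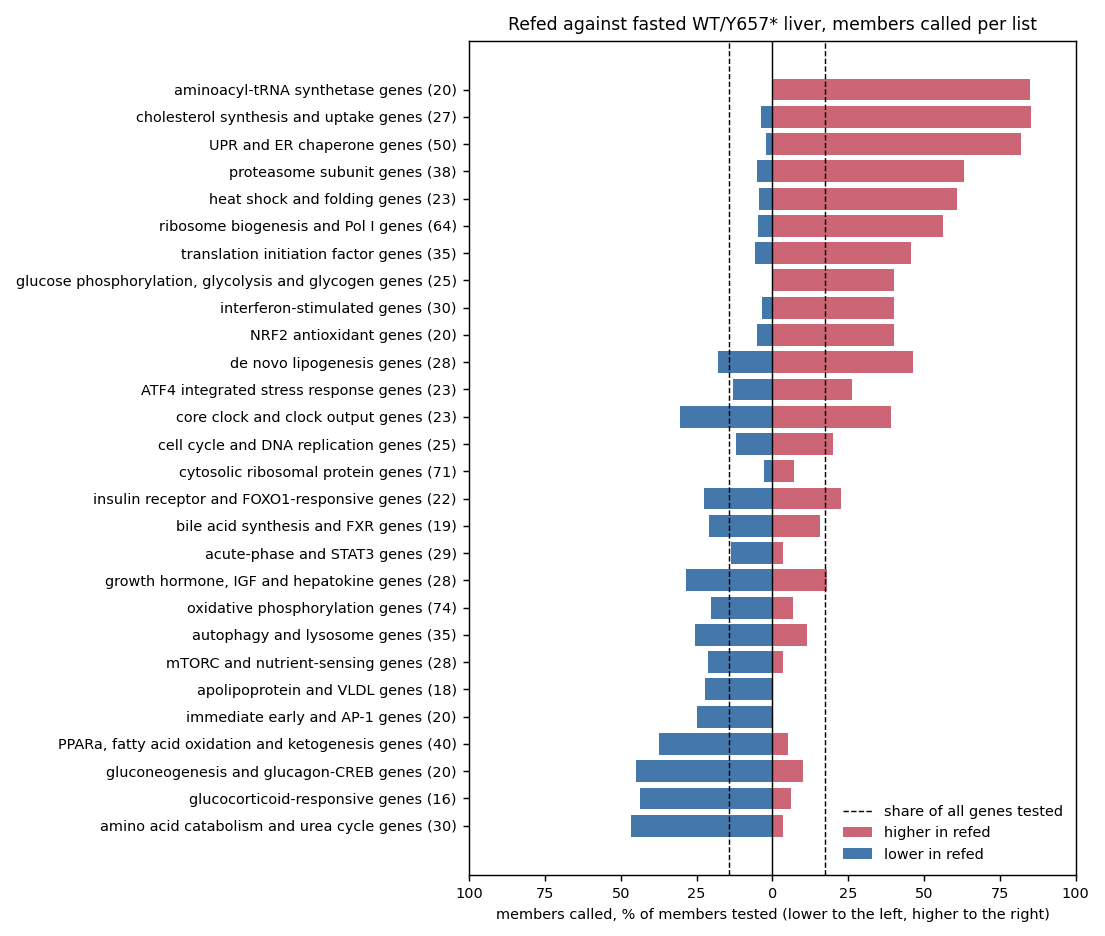
Percentage of the tested members of each gene list called higher or lower in refed against fasted WT/Y657* mice, with dashed lines at the percentages over all genes tested, 17.3% higher and 14.2% lower. Cholesterol genes (23 of 27), the unfolded protein response (41 of 50) and aminoacyl-tRNA synthetases (17 of 20) stand highest, and cytosolic ribosomal proteins (5 of 71) lie below the line.

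**Figure D4:**
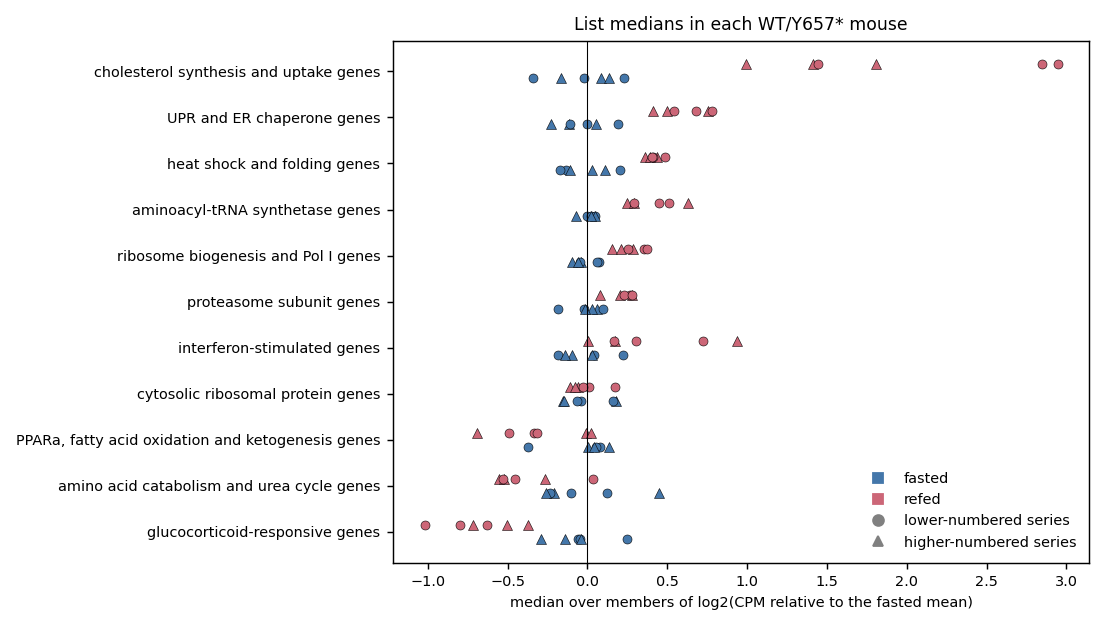
Median over each of 11 gene lists of the log2 ratio of each mouse to the mean of the fasted WT/Y657* mice, 1 point per mouse. Cholesterol genes of the refed mice spread from 0.99 (mouse RF6_MT_898) to 2.95 (mouse RF6_MT_814), while the unfolded protein response runs from 0.41 to 0.78.

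Clock genes were called in both directions. CLOCK and BMAL1 (Arntl) drive the Per and Cry genes and the output factor Dbp, which later repress or follow them, so the limbs of the clock peak at different hours. Of 23 clock genes, 9 rose and 7 fell. Per2 stood at 5.47, 12.3 and 18.9 CPM in fasted and 27.3, 43.7 and 58.8 CPM in refed mice (log2 fold change 1.96, SE 0.27, adjusted p = 1.35e-06). Dbp stood at 0.907, 9.6 and 23 CPM and 46.9, 51.4 and 59.3 CPM (log2 fold change 2.64, SE 0.45, adjusted p = 3.55e-05), Per3, a period gene with D-box matches in its promoter, at 1.61, 6.26 and 13.7 CPM and 24.9, 37.1 and 43.9 CPM (log2 fold change 2.58, SE 0.37, adjusted p = 2.37e-06), and Gm129 (Ciart), a repressor of the clock, at 1.28, 2.04 and 4.02 CPM and 8.29, 9.99 and 13.9 CPM (log2 fold change 2.28, SE 0.41, adjusted p = 6.2e-05). In all 4 the groups did not overlap, and the refed mice lay much closer together than the fasted mice for Dbp. On the other limb, Clock stood at 86.3, 100.05 and 106 CPM and 52.6, 58 and 59.5 CPM (log2 fold change -0.78, SE 0.084, adjusted p = 5.05e-09) without overlap, and Arntl at 5.24, 16.4 and 28.6 CPM and 2.36, 4.02 and 6.94 CPM (log2 fold change -1.96, SE 0.36, adjusted p = 7.25e-05) with overlap. Npas2, a partner of BMAL1, fell from 0.771, 1.32 and 3.58 CPM to 0, 0.128 and 0.323 CPM (log2 fold change -3.51, SE 0.51, adjusted p = 1.3e-06). Its refed values rest on few reads, so the size of this fall is uncertain. Nr1d1 and Nr1d2, which encode the REV-ERB repressors, were not called (0.40, SE 0.26, and 0.22, SE 0.15). Fasted mice ONF_MT_806 and ONF_MT_827 had the lowest Per2 and the highest Arntl, and fasted mouse ONF_MT_923 had the lowest Arntl.

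Genes of glucocorticoid action and amino acid breakdown were called lower more often than higher. Of 16 tested glucocorticoid-responsive genes, of 17 listed, 7 fell and 1 rose (median log2 fold change -0.51), and of 30 genes of amino acid catabolism and the urea cycle 14 fell and 1 rose (median -0.37). Mt1, metallothionein 1, stood at 48.4, 99.3 and 196 CPM in fasted and 3.99, 6.71 and 34.4 CPM in refed mice (log2 fold change -2.85, SE 0.91, adjusted p = 0.0169), and Mt2, metallothionein 2, at 13.6, 22.6 and 64.9 CPM and 0.194, 1.12 and 5.84 CPM (log2 fold change -3.66, SE 0.96, adjusted p = 0.00379). Mouse RF6_MT_898 was the highest of the refed mice in both and mouse RF6_MT_810 the next, at 34.4 and 31.2 CPM of Mt1, and neither reached the fasted range. The rule that named Mt1 and Mt2 fixed that separation. Mt1 and Mt2 are close copies that could share reads, and the call of Mt1 was lost within each series alone. Cdkn1a, the cell cycle inhibitor p21, went from 1.93, 13.4 and 59.2 CPM to 0.71, 1.19 and 7 CPM (log2 fold change -2.38, SE 0.61, adjusted p = 0.00321) with overlap, and had log2 fold changes of -3.91 in the lower-numbered and -0.68 in the higher-numbered series alone, the latter not called (adjusted p = 0.567). Nr3c1, the glucocorticoid receptor, was the member that rose, by 0.30 (SE 0.065, adjusted p = 0.000577). The 7 were 6 and 0 in the lower- and higher-numbered series alone, 5 without mice RF6_MT_898 and ONF_MT_827 and 3 without mice RF6_MT_814 and RF6_MT_817.

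Slc7a2, a cationic amino acid transporter, stood at 761, 967 and 1383 CPM in fasted and 227, 325 and 548 CPM in refed mice (log2 fold change -1.44, SE 0.20, adjusted p = 1.64e-06), and Tdo2, which opens the ring of tryptophan, at 2346, 2714 and 3355 CPM and 1389.5, 1709 and 2261 CPM (log2 fold change -0.65, SE 0.095, adjusted p = 1.75e-06). Both were without overlap. The 14 genes of amino acid catabolism that fell were 5 and 13 in the lower- and higher-numbered series alone and 11 without mice RF6_MT_898 and ONF_MT_827. ATF4 drives amino acid synthesis and transport under stress, and of 23 tested members of its list, of 25 listed, 6 rose and 3 fell. Atf4 itself rose by 0.66 (SE 0.12, adjusted p = 3.53e-05) without overlap and Ddit3, the stress factor CHOP, by 1.09 (SE 0.24) with overlap. As list medians the refed mice ran from -0.29 in mouse RF6_MT_817 through a median of -0.16 to 0.97 in mouse RF6_MT_810. Only mice RF6_MT_810 and RF6_MT_898 (0.63) lay above the fasted mean, while the median log2 fold change of the list was 0.32. Mouse RF6_MT_810 also had the highest Gadd45a, a growth arrest gene, at 28.7 CPM against a refed median of 5.12 CPM.

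Of 35 genes of autophagy and lysosomes, 9 fell and 4 rose, which became 5 and 7 when libraries were scaled by library size alone. Gabarapl1, an autophagosome protein, stood at 318, 383 and 475 CPM in fasted and 191, 195 and 219 CPM in refed mice (log2 fold change -0.91, SE 0.091, adjusted p = 8.47e-10), and Map1lc3b, the autophagosome marker LC3B, at 87.9, 101 and 116 CPM and 54.4, 60.8 and 71.8 CPM (log2 fold change -0.73, SE 0.071, adjusted p = 4.11e-10), both without overlap. Of 28 mTORC and nutrient-sensing genes, 6 fell and 1 rose, 5 and 7 under library size alone. The share called was 37.1% for autophagy and lysosome genes and 25% for mTORC and nutrient-sensing genes, against 31.5% of all genes tested. Rictor, the defining subunit of mTORC2, fell (log2 fold change -0.53, SE 0.094, adjusted p = 3.74e-05), as did Flcn, the folliculin that controls nutrient signalling at the lysosome (log2 fold change -0.55, SE 0.11), both without overlap, and Mtor was called lower (log2 fold change -0.25, SE 0.084) with overlap. In the higher-numbered series alone neither Rictor (log2 fold change -0.26, adjusted p = 0.145) nor Mtor was called, against -0.77 for Rictor in the lower-numbered series.

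Of 20 tested immediate early and AP-1 genes, of 24 listed, 5 fell and none rose, among them Fosl2, an AP-1 subunit (log2 fold change -1.10, SE 0.18) and Nr4a1, an orphan nuclear receptor that responds to glucagon (log2 fold change -1.56, SE 0.48). Of 25 tested cell cycle genes, of 30 listed, 5 rose and 3 fell, which became 6 and 5 without mice RF6_MT_898 and ONF_MT_827. The share called was 25% for immediate early genes and 32% for cell cycle genes, against 31.5% of all genes tested. The cell cycle genes that rose include subunits of the replicative helicase. Mcm5 went from 0.502, 1.18 and 2.46 CPM to 3.14, 4.2 and 5.52 CPM (log2 fold change 1.77, SE 0.30, adjusted p = 1.96e-05) and Mcm2 from 1.45, 2.86 and 3.24 CPM to 4.22, 6.31 and 6.8 CPM (log2 fold change 1.16, SE 0.21, adjusted p = 4.84e-05), both without overlap. Myc and Mycn were not called (log2 fold change -0.29, SE 0.46) and 1.08 (SE 0.58).

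Of 30 interferon-stimulated genes, 12 rose and 1 fell, with a median log2 fold change of 0.53 and 7 without overlap. Psmb9, a subunit of the immunoproteasome, stood at 5.59, 7.46 and 9.25 CPM in fasted and 10.7, 16.6 and 23.5 CPM in refed mice (log2 fold change 1.20, SE 0.18, adjusted p = 3.93e-06), and Isg15, a ubiquitin-like protein, at 1.39, 2.99 and 3.58 CPM and 4.3, 5.47 and 10.7 CPM (log2 fold change 1.19, SE 0.23, adjusted p = 0.000129). Ifit1, which binds viral RNA, rose by 0.59 (SE 0.20, adjusted p = 0.0181). The groups did not overlap in Psmb9 or Isg15. The response was uneven between mice, with list medians from 0.0031 in mouse RF6_MT_897 to 0.94 in mouse RF6_MT_898, and without mouse RF6_MT_898 the median fell to 0.32 and 9 genes were called higher, and 8 were without mice RF6_MT_898 and ONF_MT_827. Mouse RF6_MT_898 also had the highest list median of acute-phase genes, 0.63, against -0.45 in mouse RF6_MT_814, and the summed Kupffer cell markers given above reached 583 CPM in 1 refed mouse.

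Other lists moved little or in part. The share called was 45% for NRF2, 36.8% for bile acid and 22.2% for apolipoprotein genes. It was 17.2% for acute-phase, 46.4% for growth hormone and hepatokine and 27% for oxidative phosphorylation genes, against 31.5% of all genes tested. Of 20 NRF2 antioxidant genes 8 rose and 1 fell, with Gsr, glutathione reductase, higher by 0.36 (SE 0.067). Of 19 bile acid genes 3 rose and 4 fell, with Cyp8b1, which sets the cholic acid share, lower (log2 fold change -1.25, SE 0.29) and Nr1h4, the bile acid receptor FXR, higher by 0.52 (SE 0.11). Abcb4, the canalicular phospholipid exporter, fell from 604, 616 and 708.3 CPM to 311, 353 and 455 CPM (log2 fold change -0.79, SE 0.09, adjusted p = 1.4e-08), as did Hnf4a, a master regulator of hepatocyte genes (log2 fold change -0.56, SE 0.083), both without overlap. Of 18 apolipoprotein genes 4 fell and none rose, which became 1 and 1 under library size alone, 8 and none with gene length corrected for and 2 and 1 without mice RF6_MT_898 and ONF_MT_827. Of 29 acute-phase genes 1 rose and 4 fell, which became 3 and 2 under library size alone. Of 28 growth hormone and hepatokine genes 5 rose and 8 fell, and of 74 oxidative phosphorylation genes 5 rose and 15 fell, which became 16 and 3 under library size alone. Without mice RF6_MT_898 and ONF_MT_827, 8 acute-phase genes fell and none rose, and 8 oxidative phosphorylation genes rose and 11 fell. Outside the lists, Hsd3b5, a male-typical steroid dehydrogenase, rose from 0.211, 5.71 and 22.5 CPM to 23.9, 53.6 and 100.21 CPM (log2 fold change 3.22, SE 0.59), Cyp26a1, which degrades retinoic acid, rose by 3.39 (SE 0.67), and Mfsd2a, a lysophospholipid transporter, fell (log2 fold change -2.56, SE 0.50).

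Of 143 genes named by rule and called, 19 were not called in the lower-numbered series alone, 45 were not called in the higher-numbered series alone, and 15 were called in neither, with 3 mice per group in each. All 143 kept their direction in both, which is no independent check because both series entered the calls. A call lost in a single series is no difference of response between series, which was called in 0 genes. Among the genes with values in the text, the calls of Mt1, Acaca, Acacb, Pklr, Ppara, Ern1, Eif2ak3 and Rpl41 were lost in both. The call of Nsdhl was lost in the higher-numbered series, where its log2 fold change was 1.38, and so were those of Nr3c1 (0.17), Nr1h4 (0.29) and Mtor (-0.13). The calls of Cyp26a1, Mt2, Mfsd2a, Atf4, Scd1, Arntl and Ndufa4 were lost there as well. The calls of Nr4a1 (-0.98) and Ubtf (-0.28) were lost in the lower-numbered series.

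Wild-type littermates refed and fasted in the same way share no mouse with this comparison. In them 4261 genes were called (30.6%), 2306 higher (16.5%) and 1955 lower (14%). Of the genes called in WT/Y657* mice, 2506 were called in the same direction in wild-type mice, which is 57.1% of the WT/Y657* calls and 58.8% of the wild-type calls, and 36 were called in the opposite direction. The log2 fold changes of both genotypes had Pearson's r = 0.65 and Spearman's rho = 0.59 across all genes tested, as a description over genes, which are not independent, and r = 0.85 across the genes selected by their call in WT/Y657* mice. Being called in 1 genotype alone is no difference: of 1849 genes called in WT/Y657* and not in wild-type mice, 101 had a called difference of responses. That difference was called in 291 genes in all (2.09%), 89 with a response higher in WT/Y657* mice (0.638%) and 202 with a lower one (1.45%). It depends on the mice used: with each library of either genotype left out in turn the count ran from 133 to 400, and within the lower- and higher-numbered series alone it was 164 and 0. With the higher-numbered series alone each group holds 3 mice.

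Differences of responses are log2 values, WT/Y657* minus wild-type. The cholesterol list had a median of 1.92 in wild-type against 2.05 in WT/Y657* mice, with no member called different, and Mvd differed by 0.59 (SE 0.59) between genotypes. The unfolded protein response list had a median of 0.55 against 0.64, with 1 of 50 members called different, Sec61g of the translocon (-0.71, SE 0.19, adjusted p = 0.0383). That call was lost under library size alone, limma-voom and Bonferroni adjustment, without a filter on low counts, without WT/Y657* mouse ONF_MT_806, ONF_MT_826, ONF_MT_923, RF6_MT_810, RF6_MT_817 or RF6_MT_898 or any of several wild-type mice, and in the higher-numbered series alone. For Fasn the difference was 0.36 (SE 0.48), for G6pc -0.91 (SE 0.66), for Pck1 -0.069 (SE 0.29) and for Scd1 0.19 (SE 0.70), none of them called. A missed threshold does not show equal responses, and the standard errors were largest for G6pc and Scd1 among these genes.

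Srebf1 rose more in WT/Y657* mice, by 2.22 against 1.19 in wild-type mice, a difference of 1.03 (SE 0.27, adjusted p = 0.0376). The call was lost without WT/Y657* fasted mouse ONF_MT_806 or ONF_MT_827 or refed mouse RF6_MT_817 or RF6_MT_898, without any of 6 wild-type mice, and within each series alone, while the difference stayed between 0.87 and 1.14. Vars, valyl-tRNA synthetase, differed by 0.42 (SE 0.095, adjusted p = 0.0151), Pfkl, liver phosphofructokinase, by 0.50 (SE 0.11, adjusted p = 0.0146), Mcm3, a helicase subunit, by 0.998 (SE 0.24, adjusted p = 0.0243), and Nfe2l1 by 0.56 (SE 0.10, adjusted p = 0.00384). Nfe2l1 fell in both genotypes, with log2 fold changes of -0.43 in WT/Y657* and -0.99 in wild-type mice. Acy3, an aminoacylase, and Smarcb1, a chromatin remodelling subunit, rose by 0.79 and 0.82 in WT/Y657* mice with values of -0.039 and 0.23 in wild-type mice, differences of 0.83 (SE 0.16) and 0.59 (SE 0.13). None of the 20 genes named by rule with a called difference between genotypes was called under every alternative.

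The interferon list went opposite ways by its median, 0.53 in WT/Y657* and -0.32 in wild-type mice, with 12 higher and 1 lower against 1 higher and 6 lower, and the difference was called in 4 of its 30 genes. Ifit1 differed by 1.22 (SE 0.27, adjusted p = 0.0131) and Oasl1, a 2′-5′-oligoadenylate synthetase-like protein, by 1.04 (SE 0.29, adjusted p = 0.0479). The 4 calls became 2 without mouse RF6_MT_898, 2 without refed mouse RF6_MT_814, 2 without fasted mouse ONF_MT_923, 1 without mice RF6_MT_814 and RF6_MT_817 together, and 0 within either series alone.

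Ribosomal protein genes rose in wild-type mice, 66 of 71 with a median of 0.37, where in WT/Y657* mice the median was -0.0069, and the difference was called in 35 of them, all with the lower response in WT/Y657* mice. Rpl41 was called lower at a log2 fold change of -0.23 in WT/Y657* mice and was at 0.55 in wild-type mice, a difference of -0.78 (SE 0.12, adjusted p = 0.000811). Oxidative phosphorylation genes gave 25 higher and none lower in wild-type mice (median 0.15) and a called difference in 14 of 74, all lower in WT/Y657* mice, among them Ndufa4, a respiratory chain subunit (-0.56, SE 0.12, adjusted p = 0.00924). For the ribosomal list the 35 were 22 under library size alone, 28 with gene length corrected for, 25 and 0 in the lower- and higher-numbered series alone, 14 without mice RF6_MT_814 and RF6_MT_817, 19 without fasted mouse ONF_MT_923 and 21 to 43 without 1 wild-type mouse. For oxidative phosphorylation the 14 were 9, 9, 9 and 0, 3, 6 and 8 to 17 under the same settings. In the higher-numbered series the refed libraries of WT/Y657* mice carried index D506 and those of wild-type mice D505, so index and genotype cannot be told apart there.

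**Figure D5:**
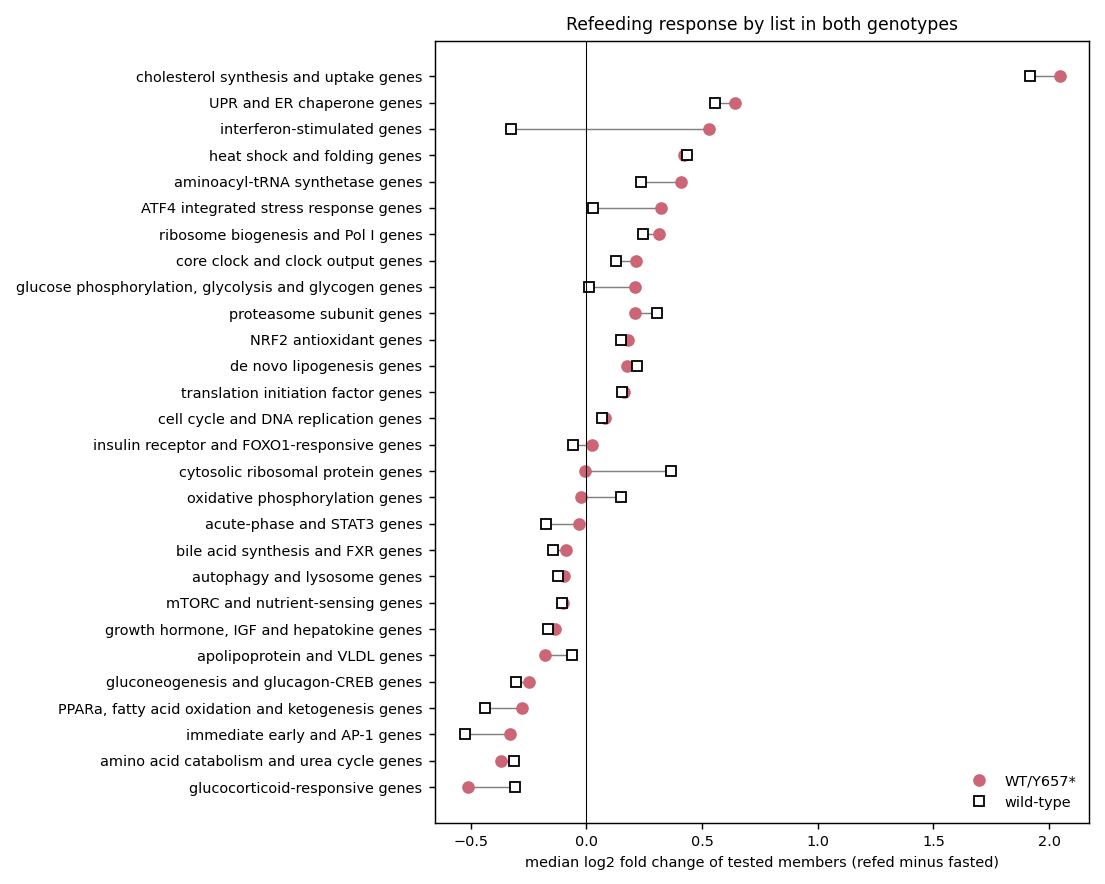
Median log2 fold change of refed over fasted mice for each gene list, with filled circles for WT/Y657* mice, open squares for wild-type mice, a grey line joining the 2 and a vertical line at 0. Cholesterol genes lie at 2.05 and 1.92, interferon-stimulated genes at 0.53 in WT/Y657* and -0.32 in wild-type mice, and cytosolic ribosomal proteins at -0.0069 and 0.37.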

How the data were processed

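Liver total RNA was sequenced as single-end reads on a stranded library kit, 1 library per mouse, and the mice are the replicates. The values deposited by the authors are estimated counts of reads for 38283 genes in each library, not normalized, of which 3.29% of those above 0 were not whole, and they were rounded. The submitters' processing notes name mm9, Cuffdiff, SAMtools, featureCounts and edgeR, while 16061 gene loci in the table equal those of GRCm38, so no loci of the table are given. A second deposited table of model means was not used. Whether counting used strand is not given in the sources used here, so antisense genes are uncertain.

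The test was edgeR 4.0.16 in R 4.3.3, with filterByExpr (13945 genes kept), TMM scaling and glmQLFit with 1 coefficient per group and a term for the mouse number series over all 36 libraries, with two-sided glmQLFTest contrasts. The common biological coefficient of variation was 0.179. The fit was tested on simulated data. List medians per mouse used log2 CPM with 0.5 added. The mice compared and the 28 gene lists were chosen with earlier results of these data known.

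Genes named by rule were the 12 that rose and 12 that fell most with a mean of at least 1 CPM and no overlap, the 3 members of each list with the smallest p, genes the study names, up to 5 per direction with the smallest p in the difference between genotypes, and regulators. Other list members were named as examples after their values were seen. Not all named genes are printed, and results on some genes are not reported here. Alternatives included DESeq2 1.42.0, limma-voom 3.58.1, other scalings and filters, each series alone, a gene length offset and leaving out each mouse.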

Additional observations from a re-analysis of the deposited data

Results flagged for a closer look

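Among the genes named by rule, 31 of 350 groups of 6 mice (8.86%) held 1 mouse set apart from the other 5 by more than the critical share of the group's range in Dixon's test at 95%. Chance gives about 1 in 20 such groups. Mouse ONF_MT_827 accounted for 9 of them, mouse RF6_MT_898 for 6, mouse RF6_MT_810 for 4 and mouse ONF_MT_826 for 3.

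Fasted mouse ONF_MT_827 was the highest of its group at 39.4 CPM for Klf6, 12.3 CPM for Cebpd, 16.6 CPM for Pgd, 104 CPM for Acaca, 25.7 CPM for Eif2ak3, 106 CPM for Mtor, 125 CPM for Ccnd1, 24.6 CPM for Egr1 and 164 CPM for Stat3. Fasted mouse ONF_MT_826 was the highest of its group at 13.5 CPM for Aacs, 17.2 CPM for Sqle and 839 CPM for Calr. Fasted mouse ONF_MT_806 was the highest of its group at 19.4 CPM for SNORA14. Fasted mouse ONF_MT_921 was the highest of its group at 9.13 CPM for Nr4a1. Fasted mouse ONF_MT_922 was the lowest of its group at 1.45 CPM for Mcm2 and 47.4 CPM for Nfe2l2. Refed mouse RF6_MT_898 was the highest of its group at 6.67 CPM for Cebpd, 69.95 CPM for Ccnd1, 5.58 CPM for Fos and 42.6 CPM for Nr0b2. Refed mouse RF6_MT_810 was the highest of its group at 192 CPM for Insig2, 92.2 CPM for Rpl13 and 115 CPM for Rpl41. Refed mouse RF6_MT_817 was the highest of its group at 26.9 CPM for Gm14493 and 99.4 CPM for Mid1ip1. Refed mouse RF6_MT_897 was the highest of its group at 55.8 CPM for Acy3 and 50.9 CPM for Rptor. Refed mouse RF6_MT_898 was the lowest of its group at 41.7 CPM for Ndufv3 and 111 CPM for Gsr. Refed mouse RF6_MT_810 was the lowest of its group at 5.78 CPM for Tfeb. Refed mouse RF6_MT_899 was the lowest of its group at 4.22 CPM for Mcm2.

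The refeeding response differed between genotypes, by the test of the difference itself, in the following genes named above or by rule. The response was higher in WT/Y657* mice, on the log2 scale, by 1.21 for Gm14493, 0.50 for Pfkl, 1.03 for Srebf1, 0.42 for Vars, 0.998 for Mcm3, 1.04 for Oasl1, 1.22 for Ifit1, 0.56 for Nfe2l1, 0.42 for Ppp1r37, 0.83 for Acy3, 0.59 for Smarcb1 and 0.58 for Sphk2. It was lower in WT/Y657* mice, with differences of -2.71 for E230001N04Rik, -0.56 for Ndufa4, -0.71 for Sec61g, -0.74 for Il6ra, -1.49 for SNORA14, -0.78 for Rpl41, -1.44 for Gm16573, -1.24 for SNORA63 and -0.71 for 1810027O10Rik. Gm14493 and Gm16573 are annotated as antisense transcripts and E230001N04Rik as a long intergenic RNA, and their counts could share reads with genes on the other strand.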

How the results depend on the processing

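Of 143 named genes called in the refeeding response, 80 were called under every alternative and none reversed, while of 20 named genes with a called difference between genotypes 0 were called under every alternative. The 4391 called genes (2412 higher, 1979 lower) became 912 (567 and 345) under Bonferroni adjustment and 1948 (1118 and 830) in the higher-numbered series alone, and the 1979 lower genes became 1231 under library size alone and 1255 in the lower-numbered series alone. Without 1 mouse the count ran from 3848 to 4399, with 2103 to 2427 higher and 1700 to 1987 lower. The wild-type calls became 838 (464 and 374) under Bonferroni adjustment and ran from 3673 to 4362 without 1 mouse, with 1984 to 2353 higher and 1689 to 2009 lower. The fit without the series block called 4371 genes and 287 differences between genotypes. No paired analysis was possible because each mouse number occurs once.

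The difference between genotypes depended on most settings. Its 291 calls (89 higher, 202 lower) became 483 (171 and 312) with DESeq2, 11 (0 and 11) under Bonferroni adjustment, 187 (110 lower) under library size alone, 164 (46 and 118) without a filter, 164 (37 and 127) and 0 (0 and 0) in the lower- and higher-numbered series, 107 (34 and 73) without mice RF6_MT_814 and RF6_MT_817 and 183 (50 and 133) without mice RF6_MT_898 and ONF_MT_827. In the higher-numbered series with 3 mice per group edgeR's test gave 0 calls and 932 genes at an unadjusted p under 0.05. Without 1 mouse the count ran from 133 to 400, with 33 to 123 higher and 100 to 277 lower. It moved most without fasted WT/Y657* mouse ONF_MT_806 (133) or ONF_MT_923 (142), refed WT/Y657* mouse RF6_MT_817 (160), fasted wild-type mouse ONF_WT_807 (168), ONF_WT_824 (178), ONF_WT_825 (174) or ONF_WT_919 (180), or refed wild-type mouse RF6_WT_828 (165) or RF6_WT_901 (165), while without refed mouse RF6_MT_814 the higher ones were 56 and without refed mouse RF6_MT_898 the lower ones were 134. The cause was not tested. The pairs of mice left out, the length offset, the wild-type mice left out and, for the difference between genotypes, single series and Bonferroni adjustment were chosen after seeing the data.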
